A study of Nannochloropsis oceanica with 36 samples.

Results

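Cells of the marine alga Nannochloropsis oceanica IMET1 growing in nitrogen-replete (N-replete) medium were compared at 24 h and at 6 h after transfer. The libraries were chosen by their titles: 3 of N-replete cells at 24 h and 3 of N-replete cells at 6 h, 6 of the 36 libraries of the series. Both groups are strain IMET1 with no genetic change. Cells in mid-logarithmic growth, kept until then in modified f/2 (seawater with added nutrients, NaNO3 at 1 g/l), had been washed in sterile seawater and divided at equal cell number between N-replete and nitrogen-deprived (N-deprived) medium. Cultures were lit without a dark period (about 50 µmol photons m-2 s-1), held at 25 °C and bubbled with air enriched to 1.5% CO2. The other groups used here are N-replete cells at 3, 4, 12 and 48 h and N-deprived cells at 3, 4, 6, 12, 24 and 48 h, with 3 libraries each. Biological replicate cultures are named in the labels, which do not say whether a replicate number follows 1 culture through time.

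Nannochloropsis is a genus of very small unicellular eustigmatophytes, photosynthetic algae whose plastid descends from a red alga. With nitrate available, cells take it up, reduce it to ammonium and build amino acids, and they divide; without nitrogen, division slows and carbon is stored as triacylglycerol.

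Transcripts were measured as FPKM, the sequenced fragments of a gene scaled by the length of its transcript and by all fragments mapped in that library. An FPKM value so scaled is a share of its library, and fewer transcripts of 1 gene cannot be told apart from more transcripts of others. Whether a further scaling between libraries was applied is not stated in the sources used here. Of 9756 gene models, 1 carries a gene symbol, and 0 matched the 160 organelle genes of the reference table by identifier. That match cannot tell whether organelle genes are among the models. The genes are therefore given by identifier and position on the files' scaffolds, without a function. In all, 9647 genes with at least 1 FPKM in 3 or more libraries were tested with limma on log2(FPKM + 1), and a gene was called at a Benjamini-Hochberg adjusted p under 0.05. Summed FPKM was 567006 to 629498 in the 24 h libraries and 564051 to 593539 in the 6 h libraries. Relative depth, fitted to the whole-number steps of low values, was 2.722, 1.446 and 0.923 in the 24 h libraries and 1.032, 0.827 and 0.929 in the 6 h libraries. The median SD of log2(FPKM + 1) between replicates was 0.111 at 24 h and 0.115 at 6 h.

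Most genes differed between 24 h and 6 h, and most of the differences were small. Of the genes tested, 72.6% were called, with 3256 higher at 24 h (33.8%) and 3747 lower (38.8%). At least 2-fold differences were called for 17.1% of genes, 728 genes that rose (7.55%) and 918 that fell (9.52%). At least 4-fold differences were called for 22 rises (0.228%) and 12 falls (0.124%). The median absolute log2 difference was 0.44 over all genes tested, and 76.5% of the calls were under 2-fold. The 3 libraries at 24 h did not overlap the 3 at 6 h in 72.3% of the genes tested. Which direction prevailed depended on the scaling. As deposited, 44.2% of the 2-fold calls were rises, and with libraries centred by their median log2 ratio to the gene means 54.2% were, with 901 rises and 760 falls. This centring took the gene means over all 36 libraries. The median log2 difference over all genes was -0.034 as deposited, 0.049 after centring and 0.015 with quantile normalization.

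**Figure D1:**
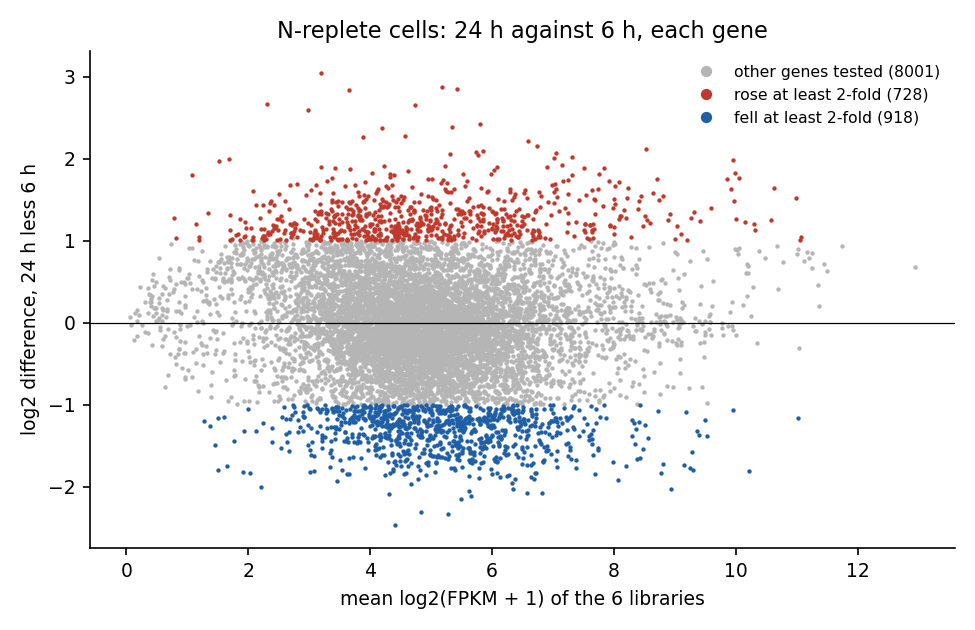
Each point is 1 of 9647 genes, with the mean log2(FPKM + 1) of the 6 N-replete libraries on the horizontal axis and the log2 difference, 24 h less 6 h, on the vertical axis. Red points are the 728 genes that rose and blue points the 918 that fell at least 2-fold with an adjusted p under 0.05, and both occur at low and high levels.

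The largest rise was of scaffold00214.g6079 (scaffold00214, 50516 to 51737). It stood at 20.6, 22.9 and 34 FPKM at 24 h, against 2.39, 1.47 and 2.89 FPKM at 6 h. The libraries spread most at 24 h. Groups that did not overlap were required of the genes named by fold or by share. The log2 difference was 3.04 (SE 0.283; limma, adjusted p = 5.85e-11). Over the N-replete course this gene was also low at 3 and 4 h (2.24 ± 0.674 and 1.99 ± 1.06 FPKM) and high at 48 h (22.1 ± 4.74 FPKM; SD, n = 3 each). The gene scaffold00043.g1664 (scaffold00043, 423433 to 426667) stood at 98.6, 94.5 and 98.6 FPKM at 24 h, against 11.8, 11.3 and 14.6 FPKM at 6 h. Its log2 difference was 2.87 (SE 0.0869; limma, adjusted p = 2.82e-21), with tight replicates in both groups. Its course had a low point at 6 h: 47.4 ± 0.923 FPKM at 3 h, 25.1 ± 2.74 at 4 h, 12.5 ± 1.78 at 6 h, 28.9 ± 3.17 at 12 h, 97.2 ± 2.4 at 24 h and 158 ± 7.37 at 48 h (SD, n = 3 each). The next gene model on that scaffold, scaffold00043.g1665 (426753 to 427733), was picked out after its values were seen. It rose to 103, 126 and 114 FPKM at 24 h, against 15.2, 13.4 and 16.5 FPKM at 6 h (log2 difference 2.85, SE 0.101; limma, adjusted p = 8.91e-20). It starts close after scaffold00043.g1664 and the libraries carry no strand, so reads of these neighbours may be shared, which was not tested.

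Among the falls, scaffold00267.g7684 (scaffold00267, 498312 to 500902) had the largest log2 difference. It stood at 7.13, 6.83 and 10.4 FPKM at 24 h, against 54, 52.8 and 40.8 FPKM at 6 h. The log2 difference was -2.47 (SE 0.166; limma, adjusted p = 5.16e-14). Its N-replete course peaked at 6 h: 6.92 ± 0.511 FPKM at 3 h, 16.2 ± 0.681 at 4 h, 49.2 ± 7.28 at 6 h, 3.23 ± 1.23 at 12 h, 8.13 ± 2 at 24 h and 17.7 ± 1.49 at 48 h (SD, n = 3 each). The gene scaffold00026.g1388 (scaffold00026, 1086216 to 1089603) stood at 15, 14.4 and 20.3 FPKM at 24 h, against 89.9, 89.6 and 80.1 FPKM at 6 h. Its log2 difference was -2.33 (SE 0.116; limma, adjusted p = 9.9e-17). It too was lower at 3 h (45.4 ± 4.94 FPKM) than at 6 h, and at 48 h it stood at 39.8 ± 2.75 FPKM (SD, n = 3 each), between its 24 h and 6 h levels.

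The 24 h libraries held more of their total in few transcripts. The 100 most abundant gene models of each library made up 25.58%, 26.37% and 25.86% of summed FPKM at 24 h, against 19.11%, 19.43% and 20.67% at 6 h. Between a 24 h and a 6 h library, 18.7% to 23.6% of summed FPKM lay in different genes (9 pairs). Within a group this share was 4.2% to 4.7% at 24 h and 3.4% to 7.4% at 6 h. The gains were more concentrated than the losses: 94 genes made up 50% of the gained share and 435 genes 50% of the lost share. Of the 108 genes with a mean of at least 500 FPKM over the 36 libraries, 21.3% rose and 11.1% fell at least 2-fold. Of the 2412 genes with the highest means, which include these 108, 11.1% rose and 12.3% fell. Of the 2412 genes with the lowest means, 7.01% rose and 7.5% fell. Falls also outnumbered rises in the quartiles between, with 6.09% rising and 8.17% falling in the lower and 5.97% and 10.1% in the upper. These shares by abundance are as deposited and were not counted after centring, under which rises outnumbered falls over all genes tested.

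The largest gain in share was of scaffold00069.g2383 (scaffold00069, 445093 to 446789), the most abundant gene model at both times. It made up 1.67% ± 0.099 of summed FPKM at 24 h and 1.09% ± 0.146 at 6 h (SD, n = 3 each). Its libraries stood at 10135, 9668 and 10220.0 FPKM at 24 h, against 5681, 5728 and 7489.7 FPKM at 6 h. The third 6 h library was the closest to the 24 h group. The log2 difference was 0.68 (SE 0.111; limma, adjusted p = 2.62e-06). Under quantile normalization, which gives the top gene of each library the same value, it is 0 by construction. The gene scaffold00355.g10357 (scaffold00355, 168809 to 170411) stood at 3406, 3374 and 3570.0 FPKM at 24 h, against 1093, 1067 and 1507 FPKM at 6 h. Its log2 difference was 1.51 (SE 0.11; limma, adjusted p = 2.82e-13). At 3 h it had stood at 3934 ± 124 FPKM (SD, n = 3), above its 24 h level.

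The largest loss in share was of scaffold00252.g7083 (scaffold00252, 192222 to 193859). It stood at 1242, 1363 and 1573 FPKM at 24 h, against 3462, 3249 and 2675 FPKM at 6 h. Its log2 difference was -1.17 (SE 0.135; limma, adjusted p = 5.94e-09), and -2.07 under quantile normalization. That the groups did not overlap was required for naming it. From 643 ± 83 FPKM at 3 h and 1253 ± 118 at 4 h it had climbed to its 6 h level of 3128 ± 407 (SD, n = 3 each). The gene scaffold00182.g5608 (scaffold00182, 689916 to 692616) stood at 647, 532 and 743 FPKM at 24 h, against 2419, 2229 and 2025 FPKM at 6 h. Its log2 difference was -1.8 (SE 0.0961; limma, adjusted p = 3.76e-16). It had also climbed over the first hours, with 919 ± 40.4 FPKM at 3 h and 1395 ± 53.4 at 4 h (SD, n = 3 each).

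**Figure D2:**
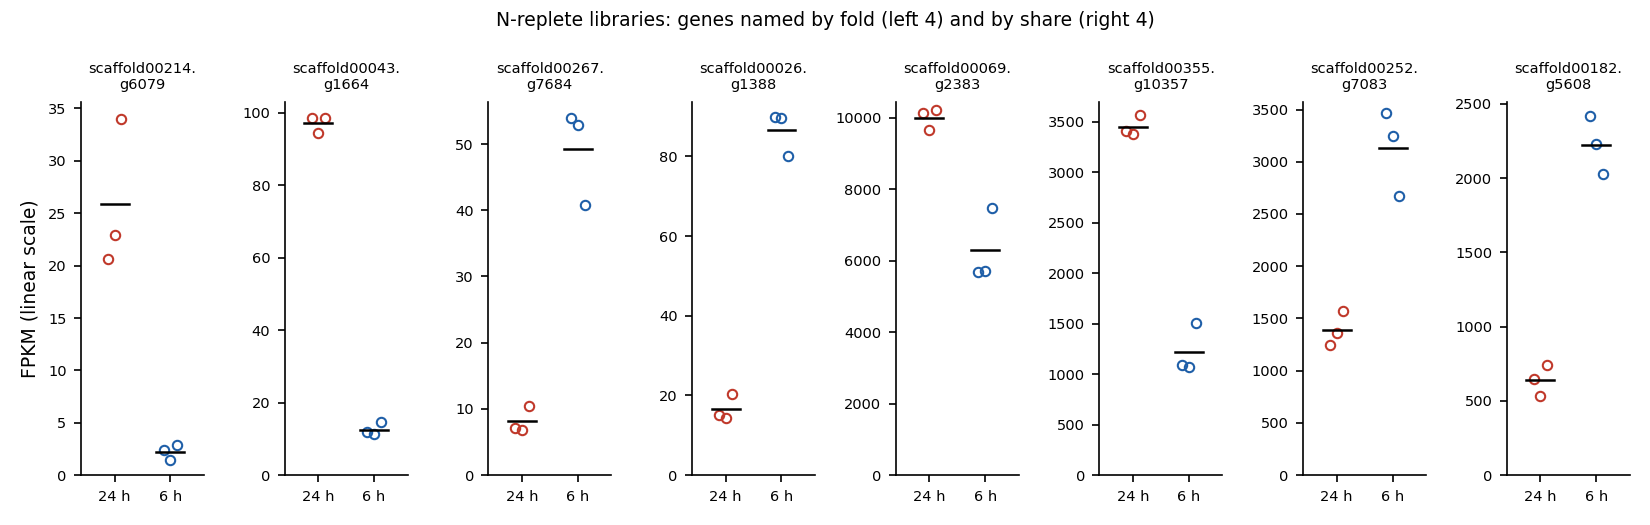
FPKM on linear axes that start at 0, with 1 circle per library and a bar at the mean of 3, for N-replete cells at 24 h (red) and 6 h (blue). The left 4 genes had the largest log2 differences and the right 4 the largest changes in share, and in each the 3 circles at 24 h lie apart from the 3 at 6 h.

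Many of the genes that changed from 6 to 24 h had moved the other way between 3 and 4 h. The 3 h and 4 h libraries are not used in the 24 h against 6 h contrast, and this comparison was added after the data were seen. Over all genes tested, 37.9% were called between these times, 24.1% higher and 13.8% lower at 4 h than at 3 h. Of the 728 genes that rose, 24 (3.3%) were higher and 367 (50.4%) lower at 4 h, with a median log2 difference of -0.32. Of the 918 genes that fell, 711 (77.5%) were higher and 5 (0.545%) lower at 4 h, with a median of 0.44, against 0.05 over all genes tested. After centring the counts were 22 higher and 407 lower among the rises, and 710 higher and 7 lower among the falls. Across the 9647 genes, which are not independent replicates, Pearson's r between the 2 sets of log2 differences was -0.6. Relative to their 6 h level, the genes that rose had a median log2 level of 0.71 at 3 h, 0.37 at 4 h, 1.23 at 24 h and 0.73 at 48 h. Those that fell had medians of -0.78, -0.34, -1.27 and -0.66 at the same times. The 6 h and 24 h libraries chose both lists, so the sizes at those times are a description.

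**Figure D3:**
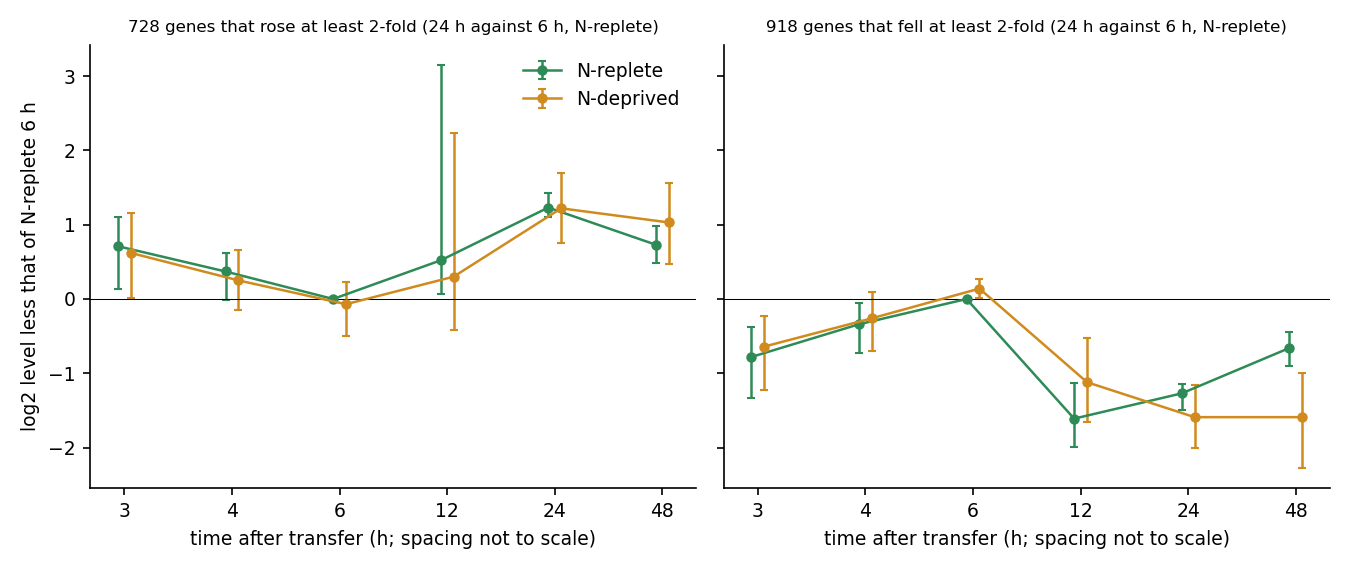
Median log2 level less the N-replete 6 h level (points) with the lower and upper quartiles (bars) over the 728 genes that rose (left) and the 918 that fell (right), at 6 times in N-replete (green) and N-deprived (orange) medium. In N-replete cells the genes that rose lie lowest at 6 h and those that fell lie highest at 6 h.

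Late cells compared with early cells showed the rises in part, and the falls little beyond the shares over all genes. For 48 h against the mean of 3 and 4 h, in 9 libraries that the 24 h against 6 h contrast does not use, 59.7% of genes tested were called, 30.8% higher and 28.9% lower. Of the 728 genes that rose, 367 (50.4%) were higher and 95 (13.0%) lower, with a median log2 difference of 0.26. Of the 918 that fell, 252 (27.5%) were higher and 326 (35.5%) lower, with a median of -0.06. At least 2-fold rises numbered 383 (3.97%) and falls 93 (0.964%) in that comparison. The lists shared 83 rises, 21.7% of the 383 and 11.4% of the 728, and 16 falls, 17.2% of the 93 and 1.74% of the 918. Across the 9647 genes r was 0.2. By the whole transcriptome, 48 h lay nearest to 24 h and 12 h farthest: the median absolute log2 difference from N-replete 24 h was 0.285 for 48 h, 0.345 for 3 h, 0.389 for 4 h, 0.445 for 6 h and 0.821 for 12 h.

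The 12 h libraries stood apart from those on either side. Their median absolute log2 difference was 0.875 from 6 h and 0.821 from 24 h, and their 10 most abundant gene models held 14.43% to 14.79% of summed FPKM, against 6.78% to 7.01% at 24 h and 4.53% to 5.24% at 6 h. Of the 728 genes that rose, 342 had a 12 h level between those of 6 h and 24 h, 238 lay beyond the 24 h level and 148 on the far side of the 6 h level. Of the 918 that fell, 272 lay between and 615 beyond the 24 h level. A split by the 12 h level, made after the data were seen and given as a description, put 198 of the genes that rose at least 2-fold above their 24 h level at 12 h. That is 27.2% of the list, against 10.9% of all genes tested. For these 198 the median log2 difference of 12 h less 6 h was 4.02. Another 293 (40.2%, against 22.2% of all genes) lay at least 2-fold below their 24 h level at 12 h. In the first class 18.2% were lower at 4 h than at 3 h, against 9.31% of all genes in that class. In the second 64.8% were, against 24.3% of all genes in it, so the classes differ in this without the choice of genes that rose.

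The same interval in N-deprived cells moved mostly the same genes the same way. In N-deprived medium 78.9% of genes tested were called: 4271 rose (44.3%) and 3344 fell (34.7%) at 24 h against 6 h, with libraries that the N-replete contrast does not use. Of the 728 genes that rose in N-replete cells, 686 (94.2%) rose in N-deprived cells and 8 fell, with a median log2 difference of 1.33, against 0.11 over all genes tested. Of the 918 that fell, 900 (98.0%) fell and 8 rose, with a median of -1.72. At least 2-fold changes in N-deprived cells covered 516 of the 728 rises (70.9%) and 796 of the 918 falls (86.7%). N-deprived cells had 1337 such rises (13.9% of genes tested) and 1315 such falls (13.6%), of which the shared genes are 38.6% and 60.5%. Across the 9647 genes r was 0.84.

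**Figure D4:**
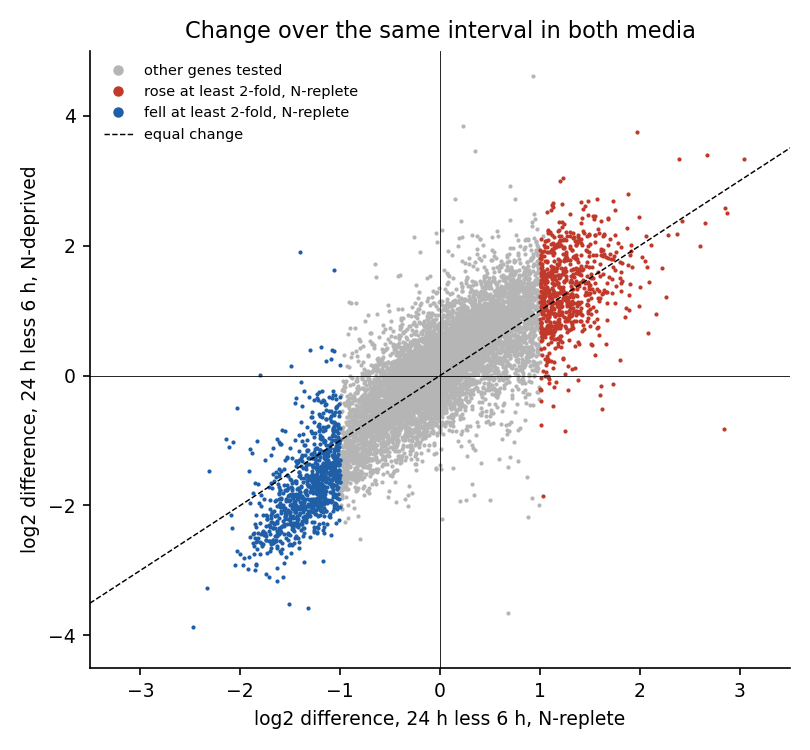
Each point is 1 of 9647 genes, with the log2 difference of 24 h less 6 h in N-replete cells on the horizontal axis and in N-deprived cells on the vertical axis, and a dashed line of equal change. Of the 728 red genes 706 lie above 0 in N-deprived cells, and of the 918 blue genes 11 do.

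Sizes differed between the media more often than directions did. The difference of the 2 changes, N-replete less N-deprived, was called for 49.5% of genes tested, with 1860 more positive (19.3%) and 2919 more negative (30.3%) in N-replete cells. After centring these were 2830 and 2121, and with quantile normalization 2565 and 2569, so the direction that prevailed rested on the scaling. The median of this difference over all genes was -0.101 on the log2 scale as deposited and 0.043 after centring. Of the 918 genes that fell, the difference was called for 601, with the fall larger in N-replete cells for 93 and in N-deprived cells for 508, and for 75 and 618 after centring. Of the 728 that rose it was called for 326, with the rise larger in N-replete cells for 122 and in N-deprived cells for 204. After centring these were 213 and 163, so for the rises the order turned round. Both lists were chosen on the N-replete libraries that enter this difference. Opposite calls were rare as deposited: 115 genes (1.19%) rose in N-replete and fell in N-deprived cells, and 304 (3.15%) fell in N-replete and rose in N-deprived cells. Of these, 1 and 2 genes changed at least 2-fold in both media. Opposite calls were not counted after centring, so which kind prevails may rest on the scaling.

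Among genes called in N-replete cells with groups apart and at least 10 FPKM in the higher group, scaffold00069.g2383 had the most positive difference between media. Against its rise in N-replete cells, it stood at 318, 318 and 332 FPKM at 24 h in N-deprived cells, against 3747, 4334 and 4123 FPKM at 6 h. The difference of the changes was 4.33 (SE 0.157; limma, adjusted p = 5.02e-19). The next was scaffold00069.g2456 (scaffold00069, 642714 to 644318), on the same scaffold. In N-replete cells it stood at 50.2, 36.5 and 19 FPKM at 24 h, against 5.36, 4.25 and 2.14 FPKM at 6 h. In N-deprived cells it was at 0.242, 0.903 and 0.294 FPKM at 24 h, against 2.33, 1.02 and 1.53 FPKM at 6 h. The replicates spread widely in N-replete cells and were near 1 FPKM in N-deprived cells. The difference of the changes was 3.66 (SE 0.354; limma, adjusted p = 1.16e-09), and 4.8 with a pseudocount of 0.1.

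By the same rule the most negative difference was of scaffold00185.g5904 (scaffold00185, 458230 to 459184). It stood at 4.98, 4.48 and 4.69 FPKM at 24 h in N-replete cells, against 14.9, 14.9 and 12.8 FPKM at 6 h. N-deprived cells held 188, 173 and 163 FPKM at 24 h, against 47.5, 42.8 and 48 FPKM at 6 h. It thus fell in one medium and rose in the other, and the difference was -3.3 (SE 0.177; limma, adjusted p = 8.59e-15). The gene scaffold00140.g4546 (scaffold00140, 123174 to 125321) stood at 17.4, 17.4 and 16.9 FPKM at 24 h in N-replete cells, against 40.9, 36.1 and 34.7 FPKM at 6 h. Its N-deprived libraries were at 145, 209 and 176 FPKM at 24 h, against 54.2, 65.3 and 50.2 FPKM at 6 h. The difference was -2.68 (SE 0.158; limma, adjusted p = 4.73e-14).

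The 1 gene with a symbol, isotig00738.DGAT1A (isotig00738, 1 to 2030), is named for a type 1 diacylglycerol acyltransferase, the class of enzyme that adds a fatty acid to diacylglycerol to make triacylglycerol. It stood at 21.2, 20.3 and 24 FPKM at 24 h in N-replete cells, against 17.8, 19.2 and 19.4 FPKM at 6 h. The groups did not overlap but lay close, and the log2 difference was 0.2 (SE 0.0689; limma, adjusted p = 0.0102). With only the 6 libraries compared in the model, the adjusted p was 0.0863. Without the third 24 h library it was 0.102, and without the first 6 h library 0.0571 (limma). Its N-replete means at 6 and 24 h were its lowest. The others were 30.3 ± 0.635 FPKM at 3 h, 24.8 ± 1.77 at 4 h, 29.2 ± 0.889 at 12 h and 27.6 ± 1.81 at 48 h (SD, n = 3 each). For N-replete 48 h against 3 and 4 h the log2 difference was 0.01 (SE 0.0596; limma, adjusted p = 0.873). The rise from 6 to 24 h in N-deprived cells was larger, with a difference of -0.43 (SE 0.0974; limma, adjusted p = 0.000523).

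**Figure D5:**
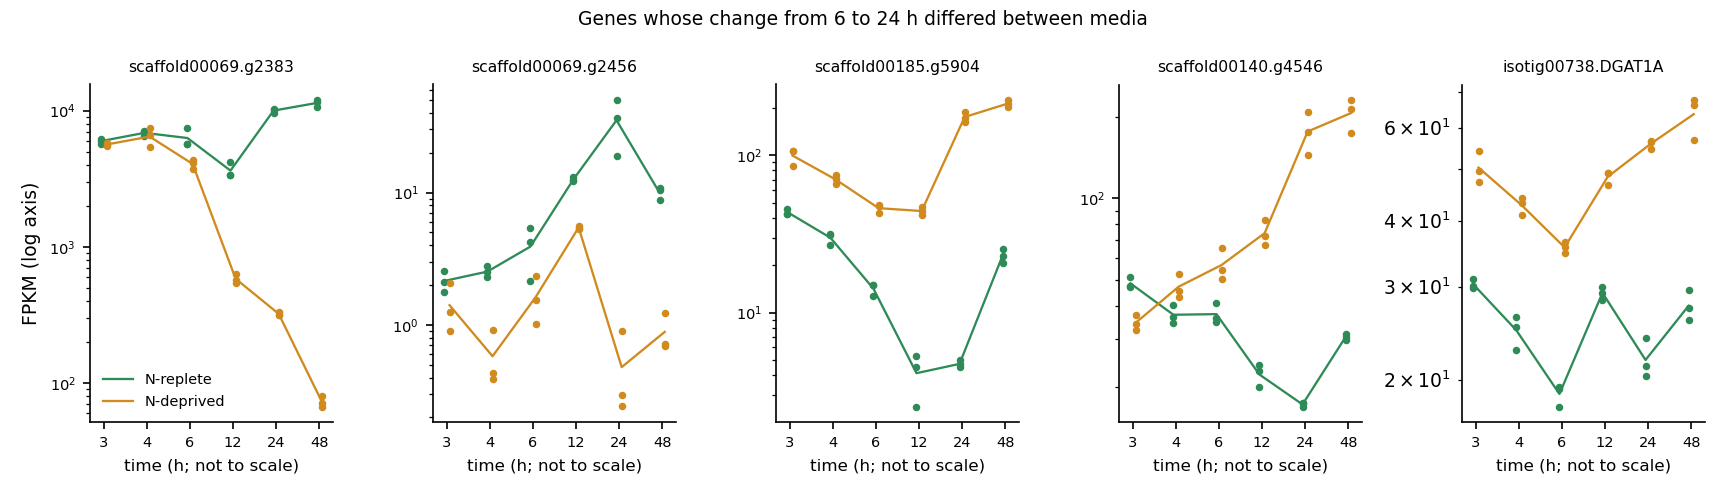
FPKM on log axes at 6 times (spacing not to scale) in N-replete (green) and N-deprived (orange) cells, with 1 point per library and a line through the means of 3, for the 4 genes named for their difference between media and for DGAT1A. From 6 to 24 h the first 2 genes rise in N-replete and fall in N-deprived cells, and the next 2 do the opposite.

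Next to a gene that changed, the following gene model changed the same way more often than over all pairs, though mostly it did not. Among 9289 pairs of neighbouring gene models, the next gene also rose at least 2-fold after 17% of 696 rises, against 7.47% of all second genes. After 20.6% of 889 falls the next gene also fell, against 9.55%. The share of changed genes whose next gene changed the same way was 20.5% where the gap was under 200 bp, 16.7% from 200 bp to 1 kb and 17.8% at 1 kb or more. Of all second genes, 6.64%, 8.53% and 9.52% rose and 9.73%, 9.56% and 8.4% fell in the same gap classes. No models overlapped, but the median gap was 124 bp and the libraries carry no strand, so reads of close neighbours may be shared, and the part of this was not tested. The longest run of rises held 5 genes, and its first 4 were scaffold00162.g5289 to scaffold00162.g5292 (scaffold00162, 253530 to 268491). Their levels were 19.6 ± 3.04, 12.7 ± 1.35, 24.1 ± 2.37 and 579 ± 42.2 FPKM at 24 h and 7.97 ± 0.845, 4.37 ± 0.79, 10.4 ± 1.09 and 242 ± 25.5 FPKM at 6 h (SD, n = 3 each). They did not share a course: at 12 h scaffold00162.g5289 and scaffold00162.g5290 stood at 159 ± 20.1 and 112 ± 10.7 FPKM, far above 24 h, and scaffold00162.g5291 at 9.52 ± 0.582 FPKM, below 24 h (SD, n = 3 each). The longest runs of falls held 4 genes, and that with the largest mean difference was scaffold00245.g6520 to scaffold00245.g6523 (scaffold00245, 440895 to 447999). Their levels were 21.6 ± 3.06, 13.2 ± 1.59, 5.44 ± 1.33 and 7.52 ± 1.2 FPKM at 24 h and 76.2 ± 8.5, 41.1 ± 4.52, 19.4 ± 3.02 and 18.3 ± 2.95 FPKM at 6 h (SD, n = 3 each). All 4 were also lower at 12 h than at 6 h, and higher at 48 h than at 24 h. Gaps between the named genes were 55, 48 and 47 bp in the rises and 1, 94 and 48 bp in the falls. All lay under the median gap of 124 bp.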

How the data were processed

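Poly(A) RNA of whole cells was sequenced as 90 bp read pairs from strand-nonspecific libraries, per the labels' protocols. The labels conflict on the RNA: the molecule field says nuclear RNA, whereas the protocol starts from total RNA. The authors deposited FPKM per gene model, and the submitters' processing notes name TopHat2 2.0.4 and Cufflinks 2.0.2 without role or setting. Neither build nor annotation is given in the sources used here. Depth in reads is unknown. A relative depth made 98.1% of 1412 values from 67 low genes whole within 0.1, and ran from 0.725 to 2.722 over the 36 libraries, so that low genes are least precise in the shallow ones. The depths were fitted to make these same values whole, so the 98.1% is no independent check of them.

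Groups came from the titles. Values were taken as log2(FPKM + 1), which understates changes of genes near 1 FPKM, and a mean for each of 12 groups was fitted over 36 libraries with limma 3.58.1 in R 4.3.3 (trended prior, two-sided moderated tests, Benjamini-Hochberg adjustment over 9647 genes). The script was tested on simulated data. Members and lists were chosen with earlier results of these data known. Named genes are the gene with a symbol, and the 2 largest rises and falls (groups apart, at least 10 FPKM in the higher group). They include the 2 largest gains and losses of share (groups apart), and the longest runs of neighbours. The 2 most positive and most negative differences between media were taken with groups apart and at least 10 FPKM in the higher N-replete group. Positions are 1-based. Alternatives were the pseudocount, filter, scaling, libraries in the model, replicate block, replicate number as a random effect and leaving out each replicate.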

Additional observations from a re-analysis of the deposited data

Results flagged for a closer look

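Of the 21 named genes, 13 differed between the media in their change from 6 to 24 h, tested as the difference of the 2 changes, N-replete less N-deprived (limma, Benjamini-Hochberg adjusted p under 0.05), which was called for 49.5% of all genes. The values on the log2 scale were 4.33 for scaffold00069.g2383, 3.66 for scaffold00069.g2456, -3.3 for scaffold00185.g5904 and -2.68 for scaffold00140.g4546, which were chosen for this difference. Of the genes chosen for their fall in N-replete cells, scaffold00267.g7684 had 1.41, scaffold00026.g1388 0.93, scaffold00252.g7083 1.17, scaffold00182.g5608 0.76 and scaffold00245.g6520 0.37, each with the deeper fall in N-deprived cells. Among the genes chosen for their rise, scaffold00355.g10357 had 1.03 and scaffold00043.g1664 0.37, with the larger rise in N-replete cells, and scaffold00162.g5291 had -0.47, with the larger rise in N-deprived cells. The value for isotig00738.DGAT1A was -0.43. The call for scaffold00245.g6520 lay close to the threshold (limma, adjusted p = 0.0475). Apart from the 4 genes chosen for this difference and DGAT1A, whether a named gene is called under another scaling was not tested. The other 8 named genes were not called, with adjusted p of 0.123 to 0.619 (limma): scaffold00214.g6079, scaffold00043.g1665, scaffold00162.g5289, scaffold00162.g5290, scaffold00162.g5292, scaffold00245.g6521, scaffold00245.g6522 and scaffold00245.g6523.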

How the results depend on the processing

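The 6 total numbers of genes called stayed within 1.5 times under every alternative run, but counts by direction did not all do so. With centring, differences between media more positive in N-replete cells numbered 2830, against 1860 as deposited, and rises larger in N-replete cells 213, against 122. Leaving out each replicate in turn gave 6624 to 6863 genes called for 24 h against 6 h, 1602 to 1727 at least 2-fold, 4292 to 4773 for the difference between media, 7320 to 7441 in N-deprived cells, 5079 to 5613 for 48 h against 3 and 4 h, and 3013 to 3311 for 4 h against 3 h. The other 9 alternatives gave 6497 to 7289, 1596 to 1904, 4526 to 5134, 7404 to 7807, 5592 to 6311 and 3610 to 4301 in the same order. Over 26 named results and 420 values, 0 reversed, and 4 missed the threshold: DGAT1A in 3 settings, and scaffold00069.g2383 under quantile normalization. For the difference between media, these values cover only the 4 genes chosen for it and DGAT1A. For the other named genes that difference was not run under the alternatives. The main model did not take replicate numbers as pairs. Same-numbered libraries at 24 h and 6 h in N-replete medium had correlations of deviations of 0.01, -0.115 and -0.332. Different-numbered ones had -0.247 to 0.278, so these correlations cannot decide on pairing. The third replicate had the highest summed FPKM at every N-replete time and the lowest at every N-deprived time. With replicate number within each medium as a random effect, the fitted correlation was 0.122. The replicate block gave 7182 genes called, 1646 at least 2-fold, 5062 for the difference between media, 7744 in N-deprived cells, 6022 for 48 h against 3 and 4 h and 3982 for 4 h against 3 h. Depth limits genes near 1 FPKM, and the split of rises and falls rests on the scaling.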
